A study of Mus musculus with 6 samples.

Results

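The Mirg cluster is a run of imprinted microRNAs (miRNAs) on the distal part of mouse chromosome 12, from miR-379 to miR-410 and miR-3072. Its members were taken by position alone, as every plus-strand row of the count table that starts within a fixed window around the cluster. That gave 75 of the 1966 rows, the mature arms of 38 hairpins over 38885 bases, from the start of miR-379-5p to the end of miR-3072-3p (chromosome 12, 109709065 to 109747949, mm10). Small RNA was counted in the hearts of 6 wild-type males, taken 8 weeks after an operation. In 3 mice (animals 47, 68 and 69) the surgery was sham, and in 3 (animals 29, 78 and 81) transverse aortic constriction (TAC) narrowed the aorta, so that the left ventricle pumped against a raised pressure. The strain and the age of the mice are not stated in the sources used here. Each mouse gave 1 library of 1226187 to 3509001 counts, so a row at 0 could hold up to 3 counts by counting error alone, or 0.855 to 2.45 CPM (counts scaled to library size).

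miRNAs are short RNAs cut from hairpins, and bases 2 to 8, the seed, pair with target mRNAs. The Dlk1-Dio3 region holds coding genes expressed from the paternal chromosome and a chain of noncoding RNAs, Meg3, Rian and Mirg, expressed from the maternal one. The miRNAs of this chain are abundant in embryo, placenta and brain and low in most adult tissues. In muscle the chain is a known target of the transcription factor MEF2, and in neurons several members act on dendrites and synapses. The comparison of TAC with sham asks how cardiac miRNAs differ under a chronic pressure load.

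The mature sequences of the members on which the results turn are printed with the seed in capitals (RefSeq, GRCm38.p6, plus strand, 5′ to 3′). RefSeq had 71 of the 75 members, matched by name. The first 5 were lower in TAC, and the next 3 had the most counts. miR-300-3p with miR-381-3p, and miR-376c-5p with miR-376b-5p, are near-identical pairs, both shown because of values already seen. miR-379-3p and miR-411-3p, with 35 and 56 counts, differ by 2 bases and are not printed. miR-485-5p, also lower in TAC, is named only.
miR-668-3p: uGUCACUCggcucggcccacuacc
miR-667-3p: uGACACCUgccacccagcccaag
miR-543-3p: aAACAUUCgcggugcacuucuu
miR-134-5p: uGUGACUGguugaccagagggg
miR-541-5p: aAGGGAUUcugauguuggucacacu
miR-381-3p: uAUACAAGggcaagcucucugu
miR-379-5p: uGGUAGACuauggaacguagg
miR-411-5p: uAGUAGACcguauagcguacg
miR-300-3p: uAUGCAAGggcaagcucucuuc
miR-376c-5p: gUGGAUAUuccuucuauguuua
miR-376b-5p: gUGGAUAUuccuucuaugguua
The 5 falling miRNAs printed here had 5 different seeds. Of the 30 members with at least 20 counts over the 6 libraries, miR-485-5p and miR-376c-3p had no sequence. Among the others a seed was shared only by miR-376b-5p and miR-376c-5p and by miR-379-3p and miR-411-3p. From miR-381-3p to miR-300-3p the substitutions were A4G, in the seed, G21U and U22C, with positions counted from the 5′ end.

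The cluster is a minor part of the cardiac miRNAs. Its 75 rows held 10074 counts in all, or 0.0827%, 0.102% and 0.108% of the total in sham 47, 68 and 69, against 0.0618%, 0.0666% and 0.0546% in TAC 29, 78 and 81. Every TAC mouse was below every sham mouse, at 0.0976% ± 0.0133 in the sham mice and 0.0610% ± 0.00605 in the TAC mice (SD, n = 3 each). On the scale used below, CPM with TMM factors, which set the libraries to a common level, the summed level was 742, 933 and 957 in the sham mice and 671, 734 and 628 in the TAC mice. On that scale the lowest sham mouse, sham 47, lay just above the highest TAC mouse. No p is given for these sums, because the members were chosen with earlier results known. In bulk tissue, fewer cells of a type and less RNA per cell cannot be told apart.

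Counts were concentrated in a few rows. miR-381-3p (1667 counts), miR-379-5p (1573), miR-411-5p (1461), miR-541-5p (1130) and miR-485-3p (1009) together held 67.9% of the cluster's counts. Of the 75 rows, 30 had at least 20 counts, 27 had 1 to 19 and 18 had 0 in every library. The test was run on the 17 members that passed the low-count filter. A member high in only 1 group could pass through that group, so the counts over these 17 describe them and support nothing further.

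Of the 17 tested members, 6 fell in TAC (miR-668-3p, miR-485-5p, miR-667-3p, miR-543-3p, miR-134-5p and miR-541-5p), 0 rose and 11 did not pass. The test was edgeR's quasi-likelihood test with Benjamini-Hochberg adjustment over all 354 miRNAs tested. The 6 are 35.3% of the tested members, where 11.3% of all tested miRNAs were lower and 19.2% higher. An unadjusted p under 0.05 was reached by 9 members (52.9%), each of them lower in TAC, against 44.4% of all tested miRNAs. The log2 fold change was below 0 for 15 members (88.2%), against 45.5%, and its median was -0.50, against 0.07 over all tested miRNAs. Every TAC mouse was below every sham mouse for 11 members (64.7%), where 22.0% of all tested miRNAs had that order, and above for 0, where 29.4% had it.

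How many members fell depended on the mice kept and on the scaling. Leaving out sham 47 or TAC 29 gave 4, leaving out sham 68 gave 2, and leaving out sham 69, TAC 78 or TAC 81 gave 1 each. The members called were miR-134-5p, miR-541-5p, miR-667-3p and miR-668-3p without sham 47, miR-134-5p, miR-485-5p, miR-543-3p and miR-668-3p without TAC 29, miR-485-5p and miR-668-3p without sham 68, and miR-668-3p alone in the other leave-outs. Without sham 47, TAC 29 or sham 68 these were 20%, 19.0% and 11.1% of the tested members, against 6.79%, 7.84% and 7.12% of all tested miRNAs. Without sham 69, TAC 78 or TAC 81 they were 5.88%, 4.76% and 5.0%, against 6.91%, 6.74% and 4.81%, near the background. The members' median log2 fold change minus that of all tested miRNAs was -0.55, -0.60 and -0.60 in those 3 analyses and -0.57 with all mice. With library totals as the scale 13 members were lower (76.5%), against 28.8% of all tested miRNAs. When the 5 most abundant miRNAs were left out of those totals 10 were lower (58.8%), against 20.3%. With a trend in GC content taken from each library 3 of 16 were lower (18.8%), against 9.52%. miR-485-5p, with no sequence, was not among the 16. DESeq2 gave no adjusted p for 6 of the 17 members, miR-485-5p and miR-667-3p among them, and called 4 of the other 11. miR-668-3p was the 1 member called lower under each of the 16 alternatives, with log2 fold changes from -1.70 to -1.18.

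**Figure D1:**
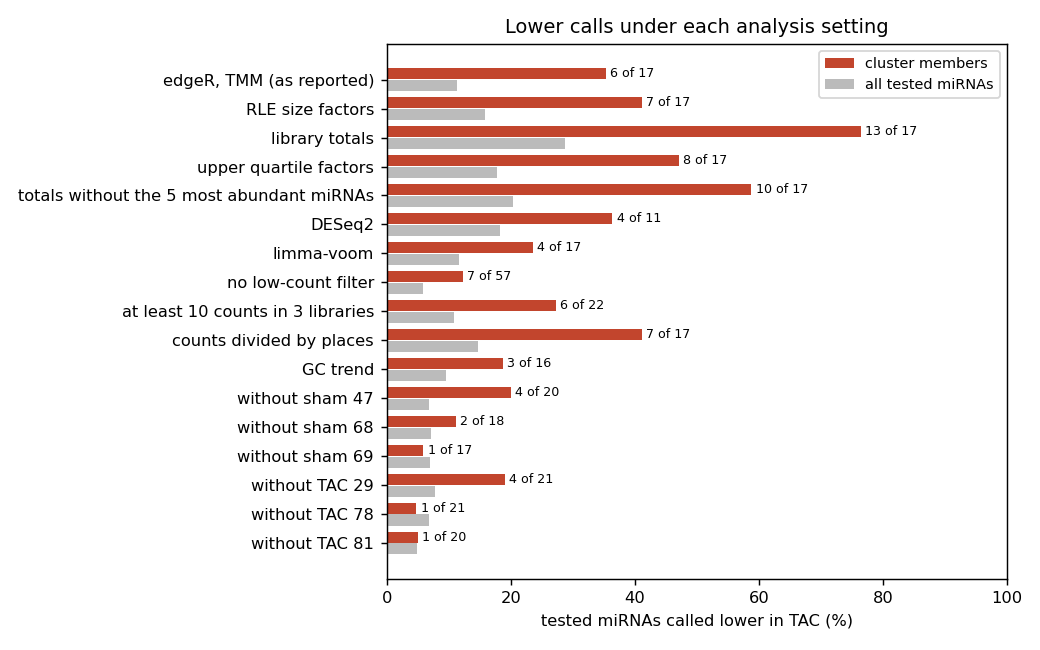
Percent of tested miRNAs called lower in TAC (adjusted p under 0.05) for cluster members and for all miRNAs, under each analysis setting, with the number of members written at each bar. The member bar is 35.3% in the analysis as reported and falls to 5.88%, 4.76% and 5.0% without sham 69, TAC 78 or TAC 81, close to the bar of all miRNAs.

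miR-668-3p is the 3p arm of a hairpin in an intron of Mirg (chromosome 12, 109734774 to 109734797). It was at 23.5, 28.6 and 33.7 CPM in sham 47, 68 and 69, against 9.07, 11.4 and 12.2 CPM in TAC 29, 78 and 81. All TAC mice lay below all sham mice with a wide gap. It fell by 1.40 ± 0.24 in log2 units, or 2.63-fold (edgeR adjusted p = 0.00402). The counts behind these levels were 92, 57 and 86 in the sham mice and 15, 17 and 13 in the TAC mice. Its 5p arm had 3 counts in all.

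The miR-485 hairpin lies in an exon of Mirg, and its miRNAs are known regulators of synaptic proteins. miR-485-5p (109734910 to 109734931) was at 12.3, 10.04 and 13.7 CPM in the sham mice and 6.05, 5.37 and 1.88 CPM in the TAC mice, from 10, 8 and 2 counts in TAC 29, 78 and 81. It fell by 1.36 ± 0.38 in log2 units (edgeR adjusted p = 0.0283), a call kept in 10 of the 14 alternatives that gave it an adjusted p. TAC 81 was the lowest, and no TAC mouse reached the sham range. The 3p arm, the more abundant one, was at 78.7, 88.3 and 99.1 CPM in the sham mice and 62.9, 71.2 and 58.2 in the TAC mice. The groups did not overlap for it either, but its log2 fold change of -0.46 ± 0.17 did not pass (edgeR adjusted p = 0.0593). It was called in 7 of 16 alternatives.

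miR-134-5p, known as a brain miRNA that limits dendritic spine growth through Limk1, lies in an exon of Mirg (109734145 to 109734166). Its level was 33.5, 41.2 and 41.1 CPM in the sham mice and 30.2, 24.9 and 19.7 CPM in the TAC mice. TAC 29 came closest to sham 47, and the groups did not overlap. It fell by 0.60 ± 0.20 in log2 units (edgeR adjusted p = 0.0466), a call lost in 6 of 16 alternatives.

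miR-541-5p, in an intron of Mirg (109742422 to 109742446), was the most abundant member that fell. It was at 87.7, 103 and 110.0 CPM in the sham mice and at 73.8, 71.9 and 66.7 CPM in the TAC mice. The TAC mice lay close together and below the sham mice, and the log2 fold change was -0.50 ± 0.16 (edgeR adjusted p = 0.0417). The call was lost in 5 of 16 alternatives, those that left out any mouse other than sham 47.

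Upstream of the annotated Mirg gene, miR-543-3p and miR-667-3p fell. miR-543-3p (109717304 to 109717325) was at 16.6, 17.6 and 21.5 CPM in the sham mice and 12.7, 8.06 and 9.39 CPM in the TAC mice, a log2 fold change of -0.86 ± 0.26 (edgeR adjusted p = 0.0361). miR-667-3p (109720061 to 109720083) was at 8.95, 13.6 and 14.5 CPM in the sham mice and 6.05, 6.05 and 4.70 CPM in the TAC mice. Its log2 fold change was -1.08 ± 0.33 (edgeR adjusted p = 0.0396), on 5 to 10 counts per TAC library. For both, every TAC mouse was below every sham mouse. miR-543-3p was not called in 6 of 16 alternatives, nor miR-667-3p in 7 of the 15 that gave it an adjusted p.

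**Figure D2:**
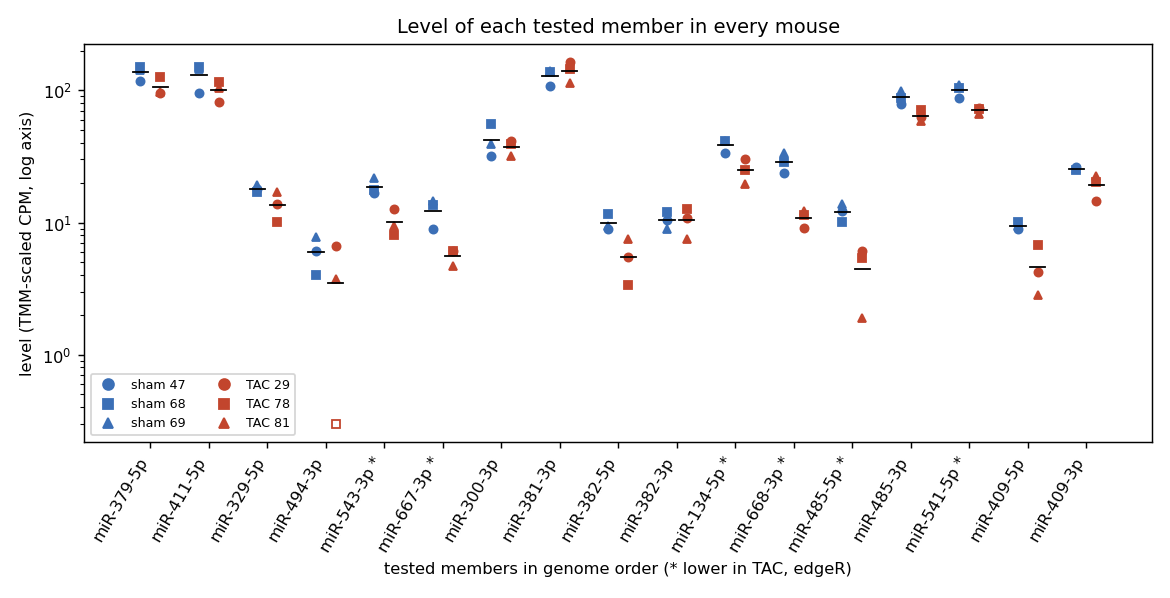
Level in TMM-scaled CPM (log axis) of the 17 tested members in genome order, 1 point per mouse, with a black line at each group mean and * for members called lower in TAC. The open square at the bottom stands for the count of 0 of miR-494-3p in TAC 78, and the TAC points of miR-668-3p, at 9.07 to 12.2 CPM, lie below its sham points, at 23.5 to 33.7 CPM.

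The 3 most abundant members did not pass the test. miR-381-3p (109726870 to 109726891) was at 109, 137 and 141 CPM in sham 47, 68 and 69, against 164, 145 and 115 CPM in TAC 29, 78 and 81. The groups overlapped, and TAC 29 was the highest of all 6 mice. Its log2 fold change was 0.14 ± 0.18 (edgeR adjusted p = 0.564) and turned to -0.17 with library totals, -0.012 with upper quartile factors, -0.017 when no row was filtered out and -0.026 when the 5 most abundant miRNAs were left out of the totals.

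The other abundant pair opens the cluster. miR-379-5p (109709065 to 109709085) was at 117, 151 and 143 CPM in the sham mice and 96.1, 127 and 97.7 CPM in the TAC mice (log2 fold change -0.35 ± 0.17, edgeR adjusted p = 0.152). miR-411-5p (109710190 to 109710210) was at 94.8, 152 and 145 CPM in the sham mice and 82.2, 116 and 104 CPM in the TAC mice (-0.37 ± 0.22, edgeR adjusted p = 0.215). In both, sham 47 was the low sham mouse and overlapped the TAC range. Each was called lower in 1 of 16 alternatives, that with library totals, where 28.8% of all tested miRNAs were lower.

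miR-300-3p (109724363 to 109724384), near-identical to miR-381-3p, was at 42.4 ± 12.1 CPM in the sham mice and 37.3 ± 4.80 in the TAC mice (SD, n = 3 each), with overlapping groups and a log2 fold change of -0.16 ± 0.23. Its count was between 25.1% and 40.7% of that of miR-381-3p. Reads could be divided between these rows by the authors' counting, so their split is uncertain.

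Of the remaining 7 tested members that did not pass, 5 had every TAC mouse below every sham mouse, an order that 22.0% of all tested miRNAs had. miR-409-5p, in an intron of Mirg, was at 8.95, 10.04 and 9.40 CPM in the sham mice and 4.23, 6.72 and 2.82 in the TAC mice (log2 fold change -0.99 ± 0.36, edgeR adjusted p = 0.0632). miR-409-3p was at 25.6 ± 0.636 CPM in the sham mice and 19.1 ± 4.12 in the TAC mice (-0.45 ± 0.21). miR-382-5p was at 8.95, 11.5 and 9.40 CPM in the sham mice and 5.44, 3.36 and 7.52 in the TAC mice (-0.89 ± 0.36, edgeR adjusted p = 0.0859). For each of these 3 the lowest sham mouse lay above the highest TAC mouse.

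miR-329-5p was at 18.05 ± 1.07 CPM in the sham mice and 13.6 ± 3.43 in the TAC mice (log2 fold change -0.43 ± 0.24), again without overlap, and miR-485-3p is given above. The groups overlapped for miR-382-3p and miR-494-3p. miR-382-3p was at 10.5, 12.05 and 9.01 CPM in the sham mice and 10.9, 12.8 and 7.52 in the TAC mice (0.02 ± 0.29), and its sign changed with the scaling, to -0.060 under RLE size factors and -0.28 under library totals. miR-494-3p was at 5.99 ± 1.91 CPM in the sham mice and 3.47 ± 3.34 in the TAC mice (-0.77 ± 0.70), with a count of 0 in TAC 78 and 11 in TAC 29.

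Position along the cluster was described without a test. GENCODE release M21, on the same assembly, places Mirg at 109729764 to 109749460, so that 27 members lie in the gene (9 in exons, 16 in introns and 2 across an exon edge) and 48 lie upstream of it, outside any annotated long noncoding or protein-coding gene on that strand. Of the 9 tested members within Mirg 4 fell, with a median log2 fold change of -0.60. Of the 8 tested upstream members 2 fell, with a median of -0.40. Over all tested miRNAs 11.3% were lower, and the median was 0.07. These counts are from the analysis with all mice, and without sham 69, TAC 78 or TAC 81 only miR-668-3p was called. The members nearest to 0, miR-300-3p, miR-381-3p and miR-382-3p, lie between 15.3 and 24.8 kb from the start of miR-379-5p, and miR-668-3p and miR-485-5p, with the lowest values, lie at 25.7 and 25.8 kb.

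**Figure D3:**
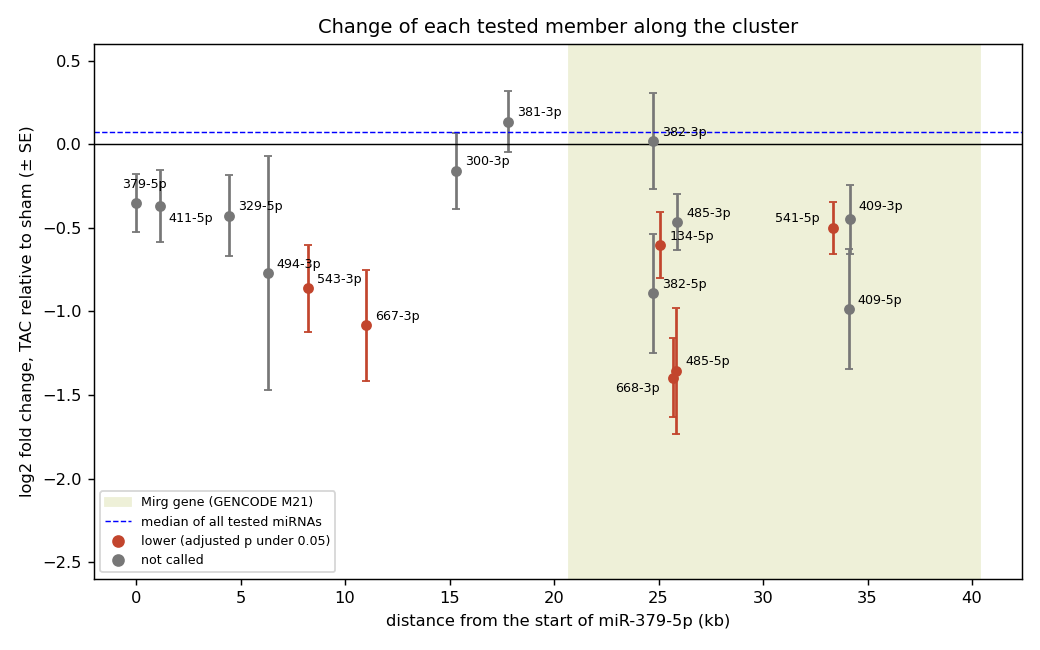
Log2 fold change (TAC relative to sham, ± SE) of the 17 tested members against the distance in kb from the start of miR-379-5p, with members called lower in red, the Mirg gene shaded and a dashed line at the median of all tested miRNAs, 0.07. Values near 0 (miR-381-3p at 0.14, miR-382-3p at 0.02) and the lowest ones (miR-668-3p at -1.40, miR-485-5p at -1.36) stand within the same stretch.

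Because shares within the cluster do not depend on the scaling between libraries, the make-up of the cluster was compared as well. miR-381-3p took 14.7%, 14.7% and 14.7% of the cluster's counts in sham 47, 68 and 69, against 24.4%, 19.8% and 18.2% in TAC 29, 78 and 81. Every TAC mouse was above every sham mouse, a difference of 6.12 percentage points. miR-668-3p took 3.17%, 3.07% and 3.52% in the sham mice and 1.35%, 1.56% and 1.94% in the TAC mice, a difference of -1.64 points.

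Of 17 shares compared, the TAC mice were all below the sham mice for 5 (miR-541-5p, miR-668-3p, miR-667-3p, miR-485-5p and miR-409-5p), all above for 1 and overlapping for 11. The exact two-sided permutation p was 0.1 for each of these 6, the smallest that 3 against 3 allows, so no share could pass the threshold. Shares add up to a fixed total, so a higher share of miR-381-3p goes with lower shares elsewhere. The shares describe unequal change among members in these mice, without a test that could pass. They do not tell which member stayed level. miR-379-5p held 15.6% ± 0.634 in the sham mice and 15.7% ± 1.5 in the TAC mice, and miR-411-5p 14.7% ± 1.76 and 14.9% ± 2.30 (SD, n = 3 each).

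**Figure D4:**
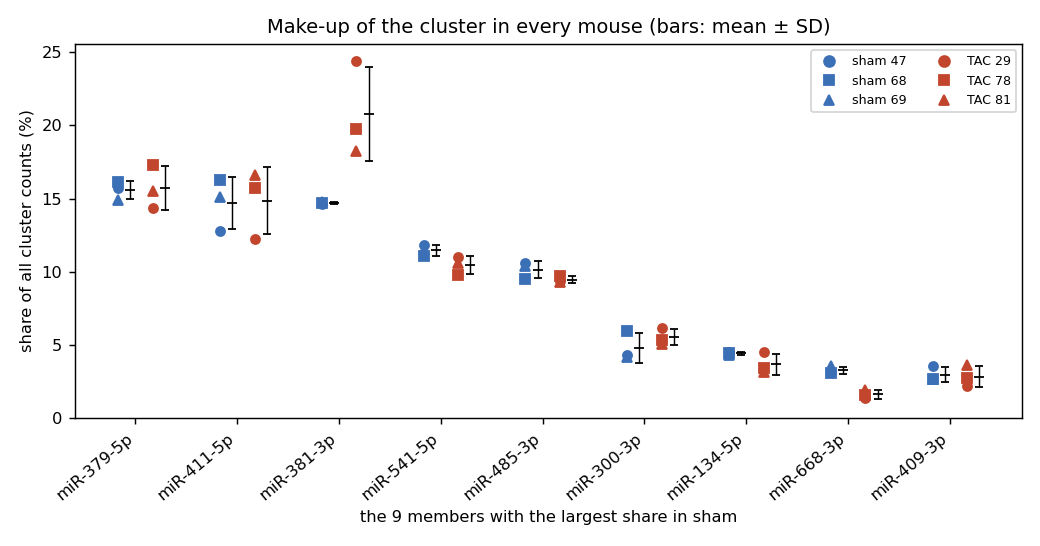
Share of all cluster counts (%) taken by the 9 members with the largest share in sham, 1 point per mouse, with bars for mean ± SD of each group. The TAC points of miR-381-3p lie at 18.2% to 24.4%, above the sham points at 14.7%, while those of miR-668-3p lie below its sham points.

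Most hairpins gave 1 dominant arm. Of 22 hairpins with both arms listed and at least 20 counts, 14 gave mostly the 3p and 8 mostly the 5p arm, and in 13 the major arm held over 90%. miR-379 (97.8% 5p), miR-411 (96.3% 5p), miR-541 (99.9% 5p) and miR-381 (0.12% 5p) were of this kind. Both arms had at least 20 counts in 8 hairpins, whose 5p shares were compared between the groups. For miR-485 the 5p share was 13.5%, 10.2% and 12.2% in the sham mice and 8.77%, 7.02% and 3.12% in the TAC mice, and for miR-409 it was 25.4%, 28.6% and 27.0% in the sham mice and 22.6%, 25.0% and 11.1% in the TAC mice. In both hairpins the groups did not overlap, with an exact permutation p of 0.1, the smallest possible here. For miR-382 the 5p share was 46.1%, 48.9% and 51.1% in the sham mice and 33.3%, 20.8% and 50% in the TAC mice, with TAC 81 inside the sham range (exact permutation p = 0.3). The mean 5p share was lower in TAC also for miR-369 (37.9% and 24.2%) and miR-411 (96.4% and 95.9%). It was higher in TAC for miR-376c (35.02% and 52.4%), miR-329 (84.2% and 89.9%) and miR-379 (97.5% and 98.1%). The groups overlapped in these 5 hairpins, with exact permutation p between 0.2 and 0.8. Some of the shares rest on few counts in TAC 29, 78 and 81. miR-376c had 3, 4 and 4 counts of the 5p and 4, 3 and 3 of the 3p arm. Its 5p counts may be the same reads as those of miR-376b-5p. miR-369-5p had 1, 1 and 4 counts, and miR-409-5p had 7, 10 and 3.

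A further 13 members had at least 20 counts but too few in single libraries to be tested. Their group means were between 1.43 and 6.23 CPM, where 3 counts are 0.855 to 2.45 CPM by library totals. The mean was lower in TAC for 10 and higher for 3, and the groups overlapped for each of the 13. Among the 3 higher rows were miR-376b-5p and miR-376c-5p, which had identical counts and may be the same reads. miR-666-5p was at 6.23 ± 1.41 CPM in the sham mice and 2.80 ± 2.69 in the TAC mice. miR-410-3p and miR-495-3p, known to promote division of neonatal cardiomyocytes in culture, were at 4.74 ± 1.68 and 5.22 ± 2.52 CPM in the sham mice and 2.15 ± 1.10 and 3.69 ± 3.20 in the TAC mice.

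The others of these 13 were at low levels in both groups. miR-411-3p was at 4.64 ± 0.358 CPM in the sham mice and 4.34 ± 2.10 in the TAC mice, and miR-379-3p, with the same seed, at 3.51 ± 1.77 and 1.86 ± 1.88. miR-329-3p was at 3.66 ± 2.68 and 1.43 ± 1.73 CPM and miR-376c-3p at 3.51 ± 1.34 and 2.42 ± 0.402. miR-154-5p, whose name is used for a family of similar hairpins of this region, was at 3.16 ± 0.708 and 1.57 ± 1.12 CPM, and miR-323-3p at 2.06 ± 0.931 and 1.48 ± 0.354. miR-369-5p was at 2.03 ± 1.14 and 1.68 ± 1.80 CPM, and miR-369-3p at 3.34 ± 1.19 and 4.92 ± 2.13 (SD, n = 3 each).

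miR-376b-5p and miR-376c-5p, of a family known for A-to-I RNA editing in the brain, had the same count as each other in every library: 5, 4 and 5 in sham 47, 68 and 69, against 3, 4 and 4 in TAC 29, 78 and 81. Scaled, both were at 1.28, 2.01 and 1.96 CPM in these sham mice and 1.81, 2.69 and 3.76 in these TAC mice, with overlapping groups. Their sequences differ by U19G (from miR-376c-5p to miR-376b-5p). The rows are not independent measurements, and their 25 counts each may be the same reads. The 45 rows with under 20 counts held 165 counts in all, at most 18 in a row, with 26 to 50 per sham and 9 to 21 per TAC library. These counts are not scaled, and the TAC libraries were smaller, at 1226187 to 1795831 counts against 1818725 to 3509001 in sham. The 2 ranges therefore do not compare levels between the groups. Of the 45 rows, miR-299a-5p and miR-299a-3p lie over rows on the opposite strand, where a count of 0 does not measure absence.

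Base composition moved with the change. Over the 16 tested members with a RefSeq sequence, whose GC content ran from 36.4% to 66.7%, log2 fold change and GC content had a Pearson correlation of -0.63 and a Spearman correlation of -0.50 across members, which share libraries and are not independent. Over all 315 tested miRNAs with a sequence these were -0.11 and -0.31. Median GC content was 59.1% for the members that fell and 47.6% for those that did not pass. With the GC trend taken out, miR-668-3p, miR-543-3p and miR-541-5p were lower, and miR-667-3p (65.2% GC) and miR-134-5p (59.1% GC) were not called. Their log2 fold changes were then -0.86 and -0.42, against -1.08 and -0.60 without that step.

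The maternally expressed miRNAs upstream, of Meg3, Rian and the Rtl1 antisense transcript, were set beside the cluster. They had 34 rows, of which 12 were tested. Among these 5 fell and 0 rose, where 11.3% of all tested miRNAs were lower and 19.2% higher. The median log2 fold change of the 12 was -0.63, against 0.07 over all tested miRNAs. miR-127-3p, complementary to Rtl1 mRNA, was the most abundant of the 34 rows, at 2291 ± 392 CPM in the sham mice and 1447 ± 313 in the TAC mice. Summed, these rows were at 2806, 3047 and 3799 CPM in the sham mice and 1916, 2487 and 1726 in the TAC mice. The Mirg cluster had 0.264, 0.306 and 0.252 counts per count of these rows in sham 47, 68 and 69, against 0.350, 0.295 and 0.364 in TAC 29, 78 and 81. The ranges of that ratio overlapped.

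Markers of the tissue and of other cells were read from the same libraries. The 4 heart muscle miRNAs (miR-1a-3p, miR-133a-3p, miR-208a-3p, miR-499-5p) were present and all rose, with a summed level of 151714 to 182942 CPM in the sham mice and 273336 to 325687 in the TAC mice. All 5 mesenchymal rows, of miR-199 and miR-214, fell, from 19004 to 30729 CPM in sham to 16558 to 17145 in the TAC mice. miR-199a-3p and miR-199b-3p have the same mature sequence and the same log2 fold change, -0.53. Their rows are not independent, and the summed level may count the same reads more than once. Of 4 smooth muscle miRNAs 3 rose (34626 to 43244 CPM in sham, 59519 to 62551 in TAC). Of 3 red blood cell miRNAs 1 rose, miR-451a, at a mean of 971 CPM in the sham mice and 2153 in the TAC mice. It held most of the list's 999 to 1164 CPM in sham and 1641 to 3062 in TAC. miR-144-3p and miR-144-5p did not pass. Of 4 tested leukocyte miRNAs 1 rose, miR-150-5p (213 to 230 CPM for the list in sham, 335 to 352 in TAC). Over all tested miRNAs 19.2% were higher and 11.3% lower.

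Among 5 miRNAs typical of neurons, miR-128-3p, which other tissues also express, rose and held nearly all of the list's 1113 to 1137 CPM in the sham mice and 1516 to 1581 in the TAC mice. miR-138-5p did not pass, miR-124-3p had 15 counts in all, and miR-9-5p and miR-9-3p were at 0. The endothelial miR-126a-3p and miR-126a-5p and the leukocyte miR-142a-3p were also at 0. These 5 rows at 0 lie over rows on the opposite strand, so they do not measure absence. The mesenchymal rows moved in the same direction as the 6 members that fell, and their part in those falls was not tested.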

How the data were processed

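The authors deposited 1 table of counts, whole numbers for each mature miRNA with its coordinates, in 1 column per mouse. In it, 0 columns of values were left unmatched. The submitters' processing notes name the build mm10 and the tools HISAT2, StringTie and DESeq2 without saying what each did. Which program counted the reads, how they were trimmed and whether strand was used is not given in the sources used here. No member had more than 1 listed place. Libraries of a group differed by more than counting error (31.6 to 67.8 as chi-square over its degrees of freedom), and each is its own mouse per the labels.

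Counts of all 1966 rows were fitted with edgeR 4.0.16 in R 4.3.3 (quasi-likelihood test with TMM factors, rows kept by filterByExpr, group as the only term), with Benjamini-Hochberg adjustment over the 354 tested rows and a threshold of 0.05. Standard errors are the log2 fold change divided by the square root of F. Permutation tests used scipy 1.17.1. Named members are those with at least 20 counts. Sequences were shown for called members and the 3 with most counts. Lists of heart muscle, mesenchymal, smooth muscle, endothelial, red blood cell, leukocyte and neuron miRNAs were read from the same fit. The members and lists were chosen with earlier results of these data known. Alternatives were DESeq2 1.42.0, limma-voom 3.58.1, 4 scalings, 2 low-count filters, division by places, a GC trend (local regression, span 0.75; 1675 rows had a RefSeq sequence) and leaving out each mouse. The scripts were tested on simulated data.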

Additional observations from a re-analysis of the deposited data

How the results depend on the processing

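The number of members called lower was 6 and ranged from 1 to 13 over the 16 alternatives, and 0 were called higher in each. It was 13 with library totals, 10 with trimmed totals (the 5 most abundant miRNAs left out), 3 with the GC trend (where miR-485-5p could not be fitted), and 1 to 4 with 1 mouse left out. The median over all tested miRNAs was 0.07 with TMM factors, -0.23 with library totals, -0.14 without a low-count filter, -0.09 with trimmed totals and -0.08 with upper quartile factors, and the members' median lay below it in each (-0.50, -0.81, -0.76, -0.66 and -0.65 in that order). DESeq2 called 4 of 11 members (36.4%, against 18.2% of the miRNAs with an adjusted p) and limma-voom 4 of 17 (23.5%, against 11.6%).

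No called member changed sign. The log2 fold change of miR-381-3p turned to -0.17 with library totals, -0.012 with upper quartile factors, -0.026 with trimmed totals and -0.017 without a filter. That of miR-382-3p turned to -0.060 with RLE size factors, -0.28 with library totals, -0.13 with upper quartile factors, -0.14 with trimmed totals, -0.071 with DESeq2, -0.14 without a filter, -0.036 with counts divided by places and -0.28 with the GC trend. With 1 mouse left out it ranged from -0.16 to 0.17 (below 0 without sham 69, TAC 29 or TAC 78), and that of miR-300-3p from -0.31 to 0.086 (above 0 without sham 68). The cluster's share was 0.146% (sham) and 0.101% (TAC) with trimmed totals, 0.124% and 0.0785% with counts divided by places, and 0.0877% and 0.0678% on TMM-scaled library sizes. With 1 mouse left out it was 0.0924% to 0.105% in sham and 0.0582% to 0.0642% in TAC. Apart from the effect of fewer samples or another scale, the cause of these changes was not tested. No paired analysis was possible because the groups share no animal number. Depth limits the rows under about 10 CPM, where 3 counts are up to 2.45 CPM.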
